A study of Mus musculus with 12 samples.

Results

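Hand1 and Hand2 encode basic helix-loop-helix transcription factors, and their loci were examined for open chromatin by ATAC-seq, which maps where Tn5 transposase can insert into DNA. Every peak summit lying inside either gene or within 100 kb of its ends was taken from each of the 12 deposited lists. This gave 134 summits of 386209 in all. Summits of different libraries were merged where neighbours lay within 250 bp of each other, which made 41 regions, 23 at Hand1 and 18 at Hand2, of 104822 over the genome. Both genes were chosen by measured values, the ranks of summits in these same libraries, since earlier results had placed regions near Hand1 at day 5 and near Hand2 at day 3 in control cells alone. Their knockout-against-control values are therefore a description, and no test was made on them.

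The libraries came from mouse embryonic stem cells grown into embryoid bodies, cell aggregates that differentiate, in medium favouring mesoderm. Groups had 2 libraries each: Foxk1 knockout (KO) at days 3, 5 and 10, the line iHA-Foxk1 (labelled iFoxk1_ND) at days 3 and 5, and a group labelled Control at day 10. All 12 are labelled NoDox. Foxk1 encodes a forkhead transcription factor. The labels used here do not say which part of Foxk1 was deleted, whether a line was 1 clone, which line the day 10 Control was, or whether the 2 libraries of a group were separate differentiations. A summit inside Foxk1 was present in all 8 libraries of days 3 and 5, KO included, which checks nothing while the deleted part is unknown. Stem cells had been kept on fibroblast feeders that were removed by plating. The lists hold 1 summit position and score per peak and no reads, so read depth is unknown, and the number of summits on chromosomes 1 to 19 and X ran from 4028 to 59006. At day 5, iHA-Foxk1 replicate 1 stood apart with 14519 summits, against 34040 in replicate 2 and 48391 and 42129 in the KO. At day 10 the lists held 4028 to 10548. Peak names in both day 5 KO lists carry the tag D7, so a difference in genotype and a difference in day cannot be told apart there.

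HAND proteins pair with ubiquitous E-proteins and bind E-box DNA. Hand1 is known for its roles in extraembryonic tissue, lateral mesoderm and the left ventricle. Hand2 is known for roles in the right ventricle, limb bud, branchial arches and sympathetic neurons. Bone morphogenetic protein signalling and GATA factors are known to act upstream of these genes in the mouse heart and lateral mesoderm.

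Hand1 (gene 15110) spans 57828713 to 57832147 on chromosome 11 in mm10, and Hand2 (gene 15111) spans 57320983 to 57324517 on chromosome 8. Lower and upper end here mean the smaller and the larger coordinate. The Hand1 window also holds the protein-coding genes Galnt10, a glycosyltransferase, and Sap30l, a relative of a histone deacetylase complex subunit, besides the long noncoding RNA (lncRNA) genes 2010001A14Rik, Gm32915, Gm33026 and Gm33078. The lower end of Gm32915, at 57832108, lies within Hand1. The Hand2 window holds no other protein-coding gene. Its lncRNA genes are Hand2os1 (57304261 to 57320859), which lies next to the 5′ end of Hand2, Gm34030, Hdnr (57332435 to 57354580) and Gm34099.

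Annotated promoter windows run from 250 bases before to 50 after an annotated start (RefSeq, build GRCm38.p6). Those of Hand2, Sap30l and Gm33078 are shown because summits fell inside them in contrasting sets of libraries. Capitals mark the stretch from the first to the last summit, widened by 5 bases on each side. The Hand2 window is chr8:57320733-57321032 (plus strand) with 1 summit, from iHA-Foxk1 day 5 replicate 2. The Sap30l window is chr11:57801387-57801686 (plus strand) with summits of 11 libraries. The Gm33078 window is chr11:57911859-57912158 (plus strand) with 1 summit from each day 5 KO library. This window lies wholly inside the annotated gene (57911740 to 57923298), so it is not set on the gene's lower end.
Hand2: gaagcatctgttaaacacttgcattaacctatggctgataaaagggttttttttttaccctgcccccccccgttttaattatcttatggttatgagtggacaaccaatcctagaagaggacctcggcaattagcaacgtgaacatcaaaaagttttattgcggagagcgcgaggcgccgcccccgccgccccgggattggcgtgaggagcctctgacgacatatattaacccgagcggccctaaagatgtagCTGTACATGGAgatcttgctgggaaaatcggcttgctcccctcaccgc
Sap30l: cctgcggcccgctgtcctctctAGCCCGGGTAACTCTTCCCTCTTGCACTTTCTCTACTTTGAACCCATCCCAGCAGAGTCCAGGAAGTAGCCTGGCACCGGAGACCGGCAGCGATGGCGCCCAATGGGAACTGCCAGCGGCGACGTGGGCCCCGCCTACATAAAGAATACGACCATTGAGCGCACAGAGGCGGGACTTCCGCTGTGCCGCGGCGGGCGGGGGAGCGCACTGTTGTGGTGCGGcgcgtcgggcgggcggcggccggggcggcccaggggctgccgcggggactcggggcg
Gm33078: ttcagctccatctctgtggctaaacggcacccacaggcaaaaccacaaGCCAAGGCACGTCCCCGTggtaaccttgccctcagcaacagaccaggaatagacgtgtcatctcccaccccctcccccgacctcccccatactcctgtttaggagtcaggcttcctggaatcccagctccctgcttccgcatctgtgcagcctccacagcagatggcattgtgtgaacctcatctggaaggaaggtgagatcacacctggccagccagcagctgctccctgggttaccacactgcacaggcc
Short motif strings were sought on both strands. The E-box, CANNTG, occurred at 2 places in the Hand2 window, 5 in that of Gm33078 and 0 in that of Sap30l, and 72.3% of 32851 RefSeq promoter windows hold it. The GATA string GATAA occurred at 2 places in the Hand2 window and in neither of the others, against 25.4% of all windows with a match. The forkhead core TGTTTA occurred 1 time each in the Hand2 and Gm33078 windows, against 13.4% of all windows. In the Hand2 window, 1 pair of matches to different motifs overlapped. A match describes the letters and is no evidence of binding.

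The lists ranked these regions differently, so each summit is given by its rank in its own list and by its relative rank, the rank as a percent of that list's length, where a small value is a high-scoring summit. To count summits fairly across lists of unequal length, each of the 8 libraries of days 3 and 5 was also reduced to its 14519 highest-scoring summits, the length of the shortest list. By that count Hand1 had 1 summit in each day 3 library of either genotype, 1 in each day 5 KO library, and 4 and 7 in iHA-Foxk1 day 5 replicates 1 and 2. The 6 other libraries were level and both day 5 controls stood above them. Over 21627 protein-coding genes the median was 2 or 3 summits in every library, so Hand1 lay below the median in 6 libraries and above it in the day 5 controls. Hand2 had 3 and 3 summits in KO libraries and 3 and 2 in iHA-Foxk1 at day 3, and 1 and 2 in KO libraries and 3 and 5 in iHA-Foxk1 at day 5. The day 5 groups did not overlap at Hand2, while the day 3 groups did. Over all protein-coding genes the day 5 mean was 3.06 and 3.22 summits in iHA-Foxk1 and 3.002 and 2.936 in the KO. How many of all genes have day 5 groups apart in this way was not counted, so nothing is read from it at either gene.

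**Figure D1:**
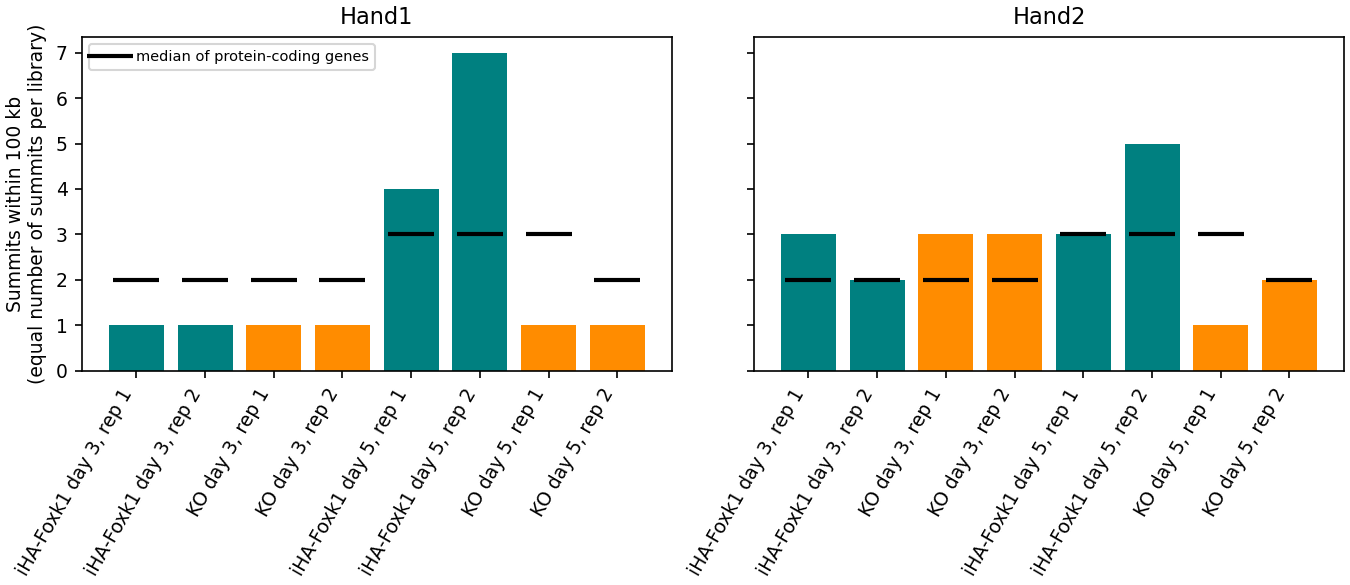
Number of summits inside or within 100 kb of Hand1 and Hand2 among the 14519 highest-scoring summits of each library (teal, iHA-Foxk1; orange, KO; black lines, median over 21627 protein-coding genes). At Hand1 the day 5 iHA-Foxk1 libraries have 4 and 7 summits and every other library has 1.

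At Hand1, the day 5 control lists placed the upper end of the gene and a region in the lncRNA gene Gm33026 far higher than any other list did. The region over the upper end of the gene (57831933 to 57832196, overlapping Hand1 and the lower end of Gm32915) held a summit in all 8 libraries of days 3 and 5. It overlapped the annotated promoter window of Gm32915. At day 3 its relative rank was 66.6% and 76.1% in KO libraries and 85.9% and 67.2% in iHA-Foxk1. At day 5 it was 78.1% and 85.3% in the KO, ranks 37795 and 35917, but 27.7% and 15.9% in iHA-Foxk1, ranks 4016 and 5396. Genotypes overlapped at day 3 and were fully apart at day 5, with the controls ranked higher. The share of all regions that were apart by genotype at day 5 was not counted.

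Of 10594 regions of the genome with a summit in all 8 libraries, only 1 other, in Cux2, moved as far up the iHA-Foxk1 lists from day 3 to day 5 as the upper-end region of Hand1. The mean relative rank of the Hand1 region changed by −54.8 percentage points in iHA-Foxk1 and by 10.3 in the KO. The median over those regions was 11.2 in iHA-Foxk1 and −0.188 in the KO, and list lengths also differed between days. A region ranked higher at day 5 in both controls and lower in both KO libraries, without overlap, was found 31 times, or 0.293% of the 10594. The day 5 control libraries are those by which Hand1 was chosen, so this order is a description too.

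A region 32650 bp above the gene, inside Gm33026 (57864797 to 57864847), had the best rank of any summit in either window. It stood at rank 511 of iHA-Foxk1 day 5 replicate 1, or 3.52%, and at rank 4690 (13.8%) in replicate 2. At day 3, iHA-Foxk1 replicate 2 had a summit there at 62.9% and replicate 1 had none. No KO library had a summit in this region at days 3, 5 or 10, at any score. Nearby, 57866655 in the same lncRNA gene held a summit at 25.9% in iHA-Foxk1 day 5 replicate 2 alone.

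A region 4905 bp above Hand1, inside Gm32915 (57837052 to 57837261), stood at 72.5% and 33.8% in the day 5 controls. Its other summit came from KO day 3 replicate 1 at 92.9%. Neither day 5 KO library had a summit there. By contrast, 57868961 to 57869167, at the far end of Gm33026, held summits in all 4 KO libraries, between 67.2% and 97.7%, and in a single control, iHA-Foxk1 day 3 replicate 2, at 87.6%.

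**Figure D2:**
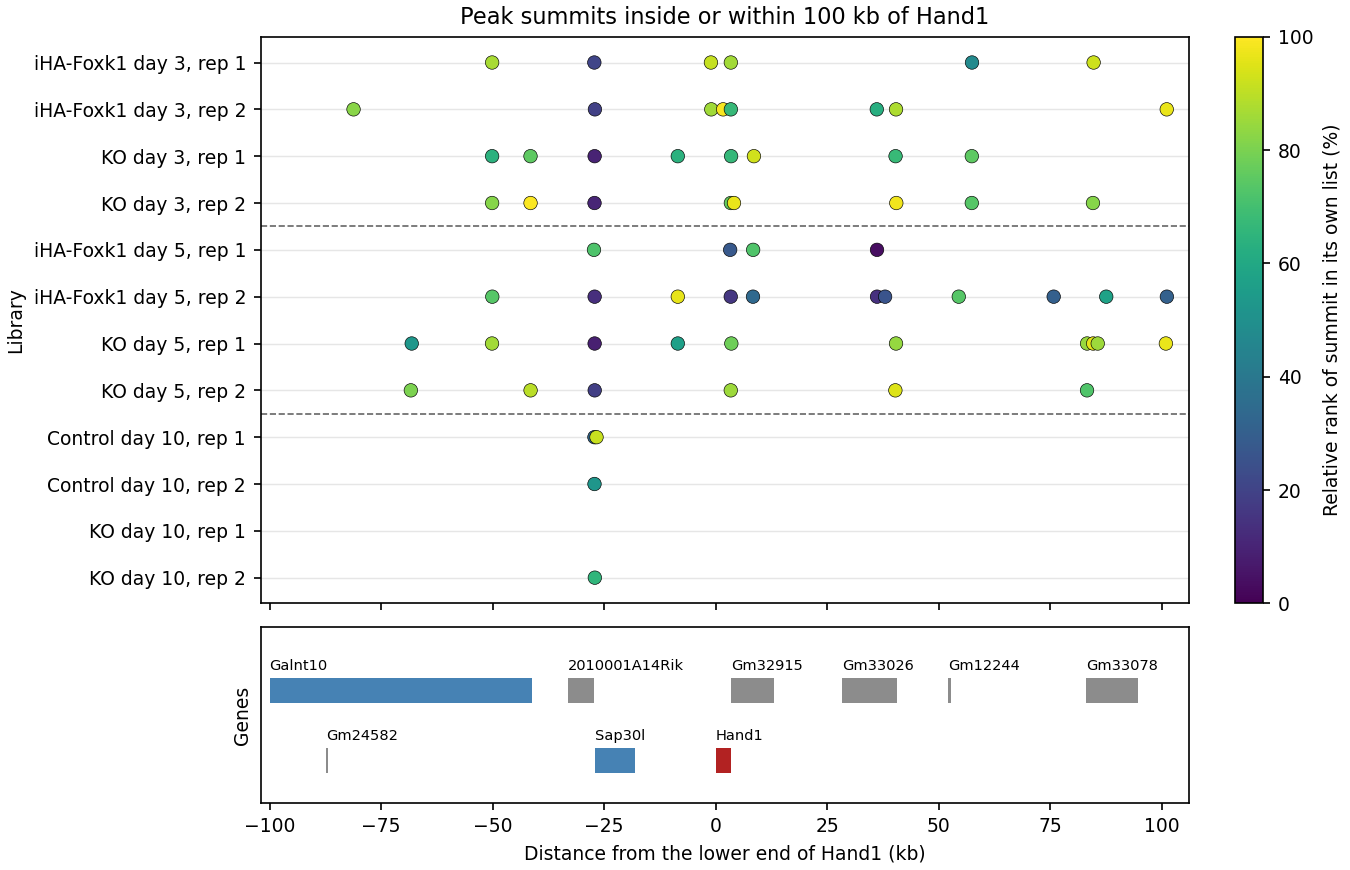
Position of each summit (horizontal axis, kb from the lower end of Hand1) in each of the 12 libraries (rows), coloured by relative rank in its own list, with annotated genes below (red, Hand1; blue, other protein-coding genes; grey, other genes). Dark, high-ranked points near and above Hand1 appear in the day 5 iHA-Foxk1 rows, whereas the column at the Sap30l promoter recurs in 11 rows.

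The Sap30l promoter region (57801414 to 57801624) was the common open site of the Hand1 window, with a summit in 11 of 12 libraries. It also overlapped the lncRNA gene 2010001A14Rik and that gene's annotated promoter window. Its relative rank was 9.73% and 10.3% in KO libraries and 20.5% and 19.3% in iHA-Foxk1 at day 3. At day 5 it was 8.66% and 18.5% in KO libraries and 72.2% and 13.4% in iHA-Foxk1 replicates 1 and 2. The short replicate 1 list thus ranked this promoter far lower than the other 7 libraries did, although it placed the region in Gm33026 higher than any other library did. At day 10 it stood at 32.1% and 52.5% in the Control libraries, at 65.5% in KO replicate 2, and was not in the list of KO replicate 1. Apart from a summit at 57801981 in Sap30l in Control replicate 1, day 10 lists had no other summit within 100 kb of Hand1 and none within 100 kb of Hand2. With lists this short, a missing summit at day 10 does not show closed chromatin.

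Of the regions with summits in 2 or more libraries, 3 at Hand1 were called in KO libraries alone. In Galnt10, 57760373 to 57760566 stood at 53% and 80.4% in the day 5 KO libraries, and 57787190 to 57787204 at 75.3% and 99.6% at day 3 and 89.5% in KO day 5 replicate 2. The region in the Gm33078 promoter shown above (57911912 to 57911919) stood at 84.4% and 72.4% in the day 5 KO libraries. Only 57827624 to 57827699, 1014 bp below Hand1, was called in both day 3 controls alone, at 91.1% and 85.9%. Over the genome, full lists of each day were compared for regions held by both libraries of a genotype. At day 5, 36.9% of these were in KO libraries alone and 2% in controls alone. At day 3 the shares were 10.7% and 8.81%, so regions of 1 genotype alone are common, above all in the longer day 5 KO lists. By that day 5 rule, 3 of 7 Hand1 regions were in KO libraries alone, a set that includes 57868961 to 57869167. The 3 KO regions named here were picked over all days, and the share of all regions picked that way was not counted. Other regions with summits in both genotypes were mostly low in rank. In Galnt10, 57778562 to 57778624 stood between 63.7% and 86.8% in 5 libraries. The position 57820200, between Sap30l and Hand1, was called in 3 libraries at 56.5% to 96.4%. Above the gene, 57886088 to 57886134 stood at 75.3% and 73.7% in the day 3 KO and 47.6% in iHA-Foxk1 day 3 replicate 1, and 57913244 to 57913389 in Gm33078 between 81.9% and 95.8% in 3 libraries. Of the 23 regions, 9 were found in a single library, or 39.1%, beside 34.3% of all 104822 regions. At Hand2 it was 4 of 18.

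Most Hand2 regions lay close together around the gene. From 57312650 to 57353814, about the span from Hand2os1 through Hdnr, 14 of its 18 regions were found, 6 of them in 6 or more libraries and 4 in a single library, and the 91667 bp below them in the window (57220983 to 57312649) held no summit in any library. Regions 8130 bp below the gene in Hand2os1 (57312650 to 57312853), 4132 bp above it (57328649 to 57328983) and 9484 bp above it, in Gm34030 and Hdnr (57334001 to 57334215), each held a summit in all 8 libraries of days 3 and 5. Another pair in Hdnr (57340923 to 57341096 and 57353747 to 57353814) held one in 7 of 8, missing in both cases from the short list of iHA-Foxk1 day 5 replicate 1.

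The best-ranked Hand2 region in 6 of 8 lists was 57353747 to 57353814, at the far end of Hdnr, 29230 bp above the gene. It stood at 9.13% and 14.7% in KO libraries and 14.5% and 16.7% in iHA-Foxk1 at day 3, and at 18.2% and 17% in the KO and 30% in iHA-Foxk1 replicate 2 at day 5. This region was therefore placed higher by both day 5 KO lists than by the day 5 control list that held it, the opposite order to the upper end of Hand1. Regions shared by all 8 libraries changed from day 3 to day 5 by a median of 11.2 percentage points in iHA-Foxk1 and −0.188 in the KO. A lower place in the day 5 controls was thus common over the genome, and nothing is read from this order.

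The Hand2os1 region ranked lower at day 5 than at day 3 in both genotypes. It stood at 16.7% and 24.9% in KO libraries and 15.9% and 17.6% in iHA-Foxk1 at day 3. By day 5 the values were 41.8% and 46.7% for the KO, and 44.7% and 34.3% for iHA-Foxk1. Genotypes overlapped on both days, and mean relative rank changed by 23.5 percentage points in the KO and 22.8 in iHA-Foxk1, beside medians of −0.188 and 11.2 over the 10594 shared regions.

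The region 4132 bp above Hand2 moved the other way. It stood at 45.6% and 34.5% in KO libraries and 56.7% and 54.7% in iHA-Foxk1 at day 3, so that both KO libraries ranked it higher. The share of all regions apart by genotype at day 3 was not counted. At day 5 it stood at 33% and 32.2% in KO libraries and 48.3% and 29.5% in iHA-Foxk1, an overlap. The region 9484 bp above stood at 36.4% and 40.2% in KO libraries and 32.3% and 33.5% in iHA-Foxk1 at day 3, and at 39.9% and 48.6% in KO libraries and 50% and 37.3% in iHA-Foxk1 at day 5.

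**Figure D3:**
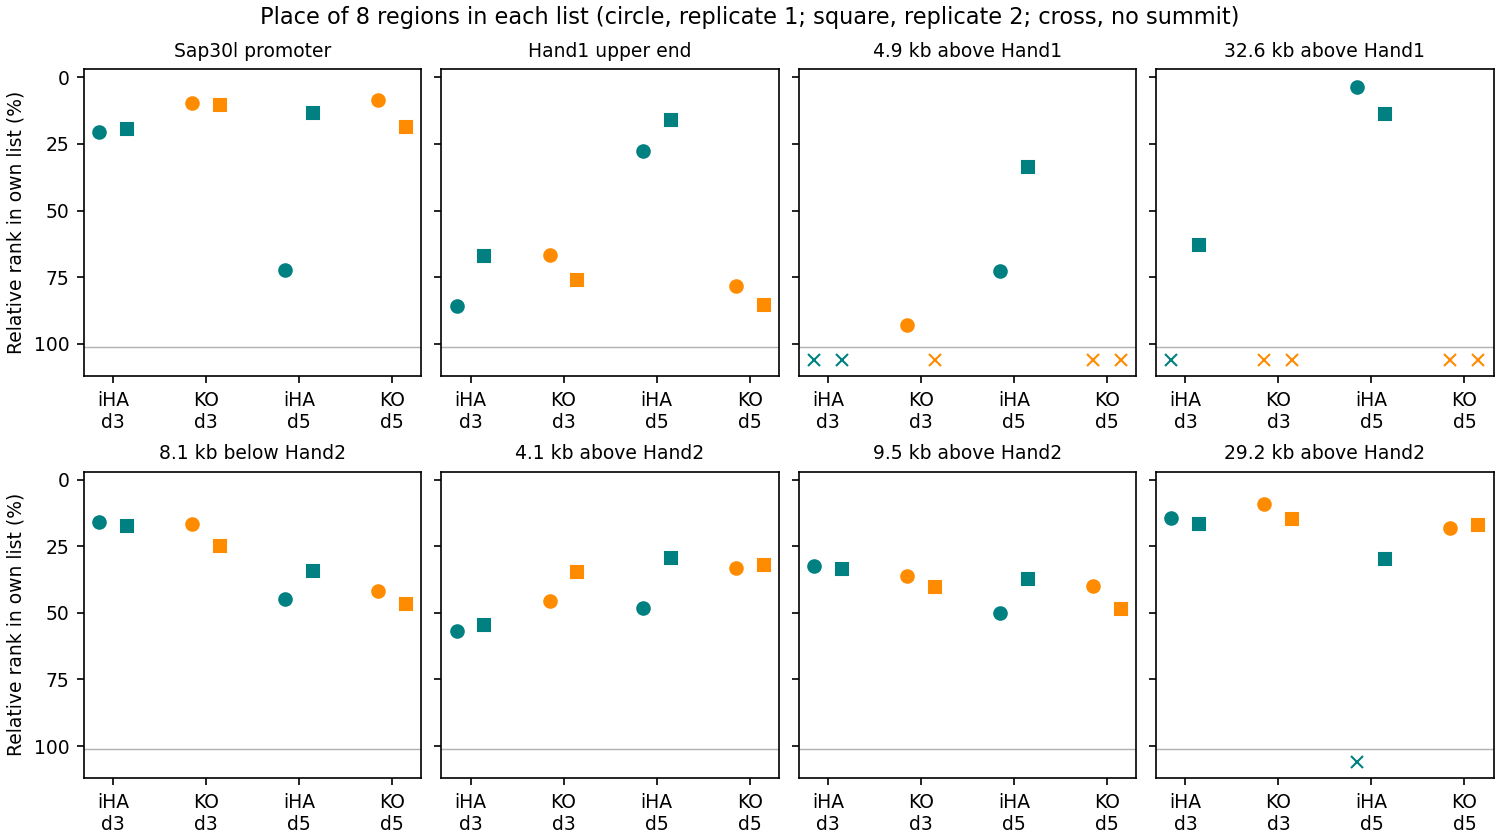
Relative rank (vertical axis, percent of the list's length, best at the top) of 8 regions in each library of days 3 (d3) and 5 (d5), teal for iHA-Foxk1 (iHA) and orange for KO, with circles for replicate 1, squares for replicate 2 and crosses for no summit. The Hand1 regions stand at 27.7% and 15.9% (upper end) and 3.52% and 13.8% (in Gm33026) in the day 5 controls, while the 3 Hand2 regions found in all 8 libraries overlap between genotypes at day 5.

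Summits inside Hand2 itself mostly ranked below those of the shared regions around it. At 57321375 to 57321453, within 470 bp of the 5′ end, relative rank lay between 52.5% and 70.1% in 6 libraries, 3 of each genotype. The 5′ end printed above held a summit (57320990, 58.9%) in iHA-Foxk1 day 5 replicate 2 alone. A region near the 3′ end (57323658 to 57323825) was called in all 4 day 3 libraries, at 62.8% and 80.8% in KO libraries and 73.8% and 95.7% in iHA-Foxk1, and in none of day 5. The stretch 57321878 to 57322284 held 1 summit each of KO day 3 replicate 2 (57%), KO day 5 replicate 2 (91.3%) and iHA-Foxk1 day 5 replicate 2 (64.7%).

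A few regions were called in 1 genotype alone. Both day 3 controls and no other library had a summit in Hand2os1 6513 bp below the gene (57314450 to 57314470), at 75% and 45.7%. Far above the gene, 57396950 to 57397087 was called in both day 3 KO libraries (55.9% and 84%) and KO day 5 replicate 2 (89.1%). In Gm34099, 57403838 to 57403898 and 57410243 to 57410374 were each called in KO day 3 replicate 2 and KO day 5 replicate 1, and in no control library. Over the genome, of regions held by both libraries of a genotype in the full day 3 lists, 10.7% were in KO libraries alone and 8.81% in controls alone. By that rule Hand2 had 1 KO-only and 1 control-only region of 10. The regions in Gm34099 just named do not meet it, and no share of all regions was counted for their pattern. Other regions held both genotypes. Close by, 57410630 to 57410722 was called in KO day 3 replicate 1 and both day 3 controls, all between 46.4% and 50.4%. In Hdnr, 57341884 to 57341887 was called in KO day 3 replicate 2 and iHA-Foxk1 day 3 replicate 1, at 93.2% and 91.4%.

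**Figure D4:**
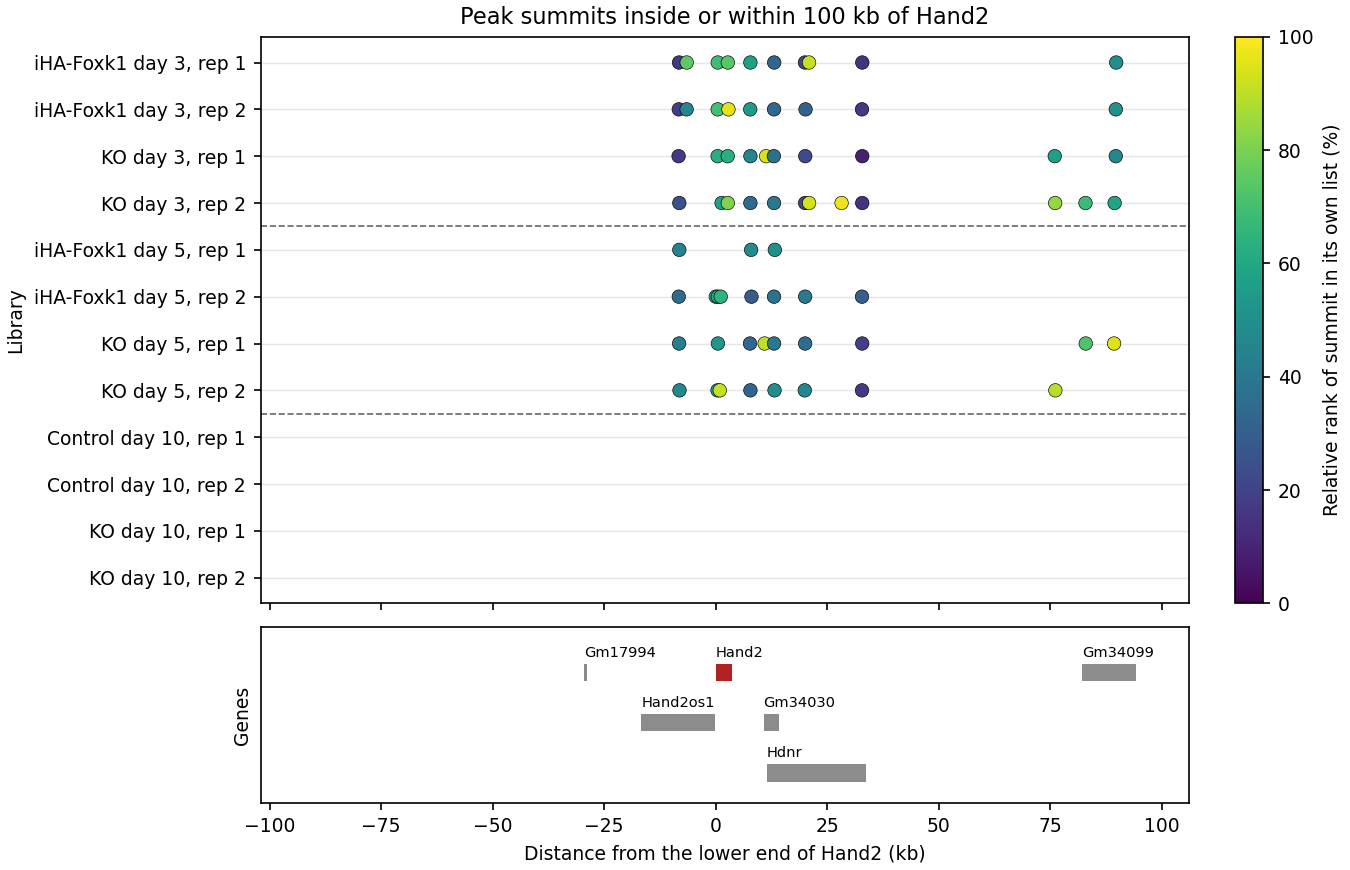
Position of each summit (horizontal axis, kb from the lower end of Hand2) in each of the 12 libraries (rows), coloured by relative rank in its own list, with annotated genes below (red, Hand2; grey, other genes). Summits recur in columns from 8130 bp below to 29230 bp above the gene at days 3 and 5, and the day 10 rows are empty.

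Calls between groups followed the rule of a summit in both libraries of one arm and neither of the other, each list being reduced to the N highest-scoring summits, N being the shortest list compared. A region was counted as reproducible where an arm had a summit in each of its libraries. At day 5 (N 14519), Hand1 had 3 control-only regions of 4 reproducible ones, those described at the upper end, in Gm32915 and in Gm33026, and 0 KO-only. Hand2 had 2 control-only regions of 4, in Hand2os1 and 9484 bp above the gene, and 0 KO-only. Over the genome 7.97% of 14273 reproducible regions were control-only and 12.1% KO-only. This is the contrast by which the genes were chosen, and nothing is read from the shares.

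These day 5 counts changed when the lists were compared in other ways. Without any KO summit within 1 kb at any score, 2 Hand1 regions and 0 Hand2 regions were control-only, against 1.16% of all. With the highest-scoring 50% of each list in place of equal numbers, the counts were 2 and 0 (1.24% of all), and with all summits again 2 and 0 (2% of all). With all summits, 3 of 7 Hand1 regions were KO-only, beside 36.9% of all. At Hand2 the day 5 control-only regions were thus ones at which KO summits stood lower by rank in longer lists but overlapped with controls by relative rank. Without iHA-Foxk1 day 5 replicate 1, the short list, 9 of 12 Hand1 regions were control-only and 1 KO-only, beside 27.6% and 19.9% of all regions, as the rule then asks for a single control library. Without replicate 2, 1 of 4 Hand2 regions was KO-only, beside 22.3% of all.

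At day 3 (N 53456), each gene had 1 control-only and 1 KO-only region, of 7 reproducible ones at Hand1 and 10 at Hand2. Over the genome 9.57% of regions were control-only and 9.77% KO-only, so that 1 of 7 and 1 of 10 are near the background. The control-only regions were those 1014 bp below Hand1 and 6513 bp below Hand2, and the KO-only ones 57787190 to 57787199 and 57396950 to 57397040. Without iHA-Foxk1 replicate 1, Hand1 had 3 KO-only and 4 control-only regions of 10, beside 13.1% and 19.2% of all regions. Without KO replicate 1, Hand2 had 5 KO-only and 3 control-only regions of 15, beside 18.6% and 11.9%. Leaving out any 1 of the other libraries gave 2 KO-only regions at Hand1, of 8 or 9, beside 13.4% to 18.6% of all. At day 10 (N 4028) neither gene had a reproducible region, while 11.8% of all 3634 were control-only and 9.88% KO-only.

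From day 3 to day 5 within iHA-Foxk1 (N 14519), Hand1 had 3 day 5-only regions of 4, at the positions named for the genotype comparison, and Hand2 had 2 of 4, at 4132 and 9484 bp above the gene. Both full day 3 lists held these 2 Hand2 regions, at ranks beyond N. By mean relative rank the region at 4132 bp stood higher at day 5 (−16.8 percentage points), but that at 9484 bp stood lower (10.8). Over the genome 13.4% of 15158 regions were found at day 5 only and 22.5% at day 3 only, and neither gene had a day 3-only region. This comparison shares its day 5 libraries with the genotype comparison, so the results are not independent. Without iHA-Foxk1 day 5 replicate 1 the Hand1 count was 9 of 11, beside 31.1% of all regions. With all summits in place of equal numbers, 1 of 5 Hand1 regions and 0 of 9 Hand2 regions were day 5-only, beside 2.65% of all. Within the KO (N 42129), Hand1 had 2 day 5-only regions of 5, in Galnt10 and at the Gm33078 promoter, and Hand2 0 of 6, against 8.59% found at day 5 only and 10.8% at day 3 only. At the N of the control arm Hand1 and Hand2 had 0 day 5-only regions in the KO, beside 9.63% of all regions. Without KO day 5 replicate 2, 4 of 11 Hand1 regions and 1 of 11 Hand2 regions were day 5-only, beside 21% of all. Hand2 also had 1 without KO replicate 1 of day 5 (of 8, beside 19.5%) or of day 3 (of 9, beside 10.2%).

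Genes that act with or upstream of the HAND factors were counted in the same way at day 5, with regions inside or within 100 kb of each gene. Near the E-protein partners Tcf3, Tcf4 and Tcf12, 0 of 9 reproducible regions were control-only and 0 KO-only. Near 7 relatives of the Twist family of helix-loop-helix genes, 1 of 13 was control-only, at Scx, a factor of tendon progenitors, and 0 KO-only. Near 20 upstream regulators, 5 of 41 were control-only, at Gata6, Isl1, Gata5 and Bmp2, and 1 KO-only, at Bmp7. These counts stand beside the 7.97% and 12.1% of all regions. At day 3, where 9.57% of all regions were control-only and 9.77% KO-only, the partners had 2 KO-only regions of 32, near Tcf12 and Tcf4, and 0 control-only. The Twist-family relatives had 4 KO-only of 41, near Scx, Ferd3l, Twist1 and Tcf21, and 1 control-only, at Twist1. The upstream regulators had 12 KO-only of 156, led by Sox4, Tbx5 and Foxf1, and 16 control-only, led by Smad5, Edn1 and Bmp2.

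Among 14 genes of lateral plate and cardiac mesoderm, 7 of 25 regions were control-only at day 5, near Hoxb6, Kdr, Meis2, Fgf10, Smarcd3 and Mesp1, and 1 was KO-only, at Mesp1, beside 7.97% and 12.1% of all regions. Among the 14519 highest-scoring summits, Hoxb6, a homeobox gene of the posterior body, had 3 and 3 at day 5 in iHA-Foxk1 and 0 in each of the other 6 libraries. Kdr, the receptor of vascular endothelial growth factor on early mesoderm, had 2 and 4 there, 0 and 0 in iHA-Foxk1 at day 3, and 1 in each KO library. Meis2, a homeobox cofactor, had 7 and 6 in the day 5 controls and 1 or 2 in every other library. Within iHA-Foxk1, 11 of 24 regions of this list were found at day 5 only, beside 13.4% of all regions, and within the KO 12 of 100, beside 8.59%. At day 3, 17 of 125 were KO-only, led by Tbx3, Foxf1 and Kdr, and 7 control-only, led by Fgf10, Mesp1 and Prrx1, beside 9.77% and 9.57% of all.

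Summits near markers of the culture and of other cells also differed between libraries, all counted among 14519. Shares of called regions in each list stand beside 7.97% control-only and 12.1% KO-only over the genome at day 5, and 9.57% and 9.77% at day 3. Mesoderm markers (9 genes, among them T, Eomes and Mixl1, with Kdr, Mesp1 and Pdgfra shared with the list before) had 16 to 23 summits in the 4 KO libraries, 18 in each iHA-Foxk1 library of day 3, and 26 and 30 in those of day 5. These totals add up the genes, so a summit within 100 kb of both Mesp1 and Mesp2 was counted for each. Mesp2 made up 4 and 3 of the day 5 control totals, 3 and 2 of the day 5 KO totals and 1 of each day 3 total. Each library had a summit at 7 to 9 of the 9 genes. Those without were T in every KO library, Kdr in iHA-Foxk1 at day 3, and Pdgfra at day 3 in both genotypes. At day 5, 2 of 19 regions (10.5%) were control-only and 1 (5.26%) KO-only, and at day 3, 17 of 90 (18.9%) and 10 (11.1%).

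Feeder fibroblast markers (10 genes) had 26 and 25 summits in the day 5 controls, 18 in each day 5 KO library and 15 to 18 at day 3, from 7 or 8 genes per library. Of the single genes, Col1a2, a collagen gene, had 4 and 3 in the day 5 controls and 1 and 2 in the day 5 KO, and Loxl1, a matrix enzyme, had 5 and 2 against 1 and 1. S100a4 had 3 and 3 against 1 and 2, and Thy1 had 4 and 4 against 3 and 3. Fap and Fbln2 were level, at 2 in each day 5 library. Col1a1 had 4 and 7 against 4 and 2, which overlap at 4. Vim, an intermediate filament gene, went the other way, with 2 and 2 against 4 and 4. Col3a1 and Postn, genes of extracellular matrix, were at 0 in all 8 libraries, although each had a KO-only region in the longer lists compared at day 3. At day 5, 4 of 21 regions (19%) were control-only and 2 (9.52%) KO-only, and at day 3, 5 of 68 (7.35%) and 2 (2.94%).

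Trophoblast markers (10 genes), of a cell type known to express Hand1, had 13 and 14 summits in the day 5 controls and 7 and 11 in the day 5 KO. At day 3 they had 17 and 15 in iHA-Foxk1 and 9 and 10 in the KO, from 5 to 8 genes per library. Prl3d1, a placental hormone gene, and Krt7, a keratin gene, had 1 summit each over the 8 libraries. At day 5, 3 of 10 regions (30%) were control-only, near Cdx2 and Gata3, and 0 KO-only, and at day 3, 10 of 72 (13.9%) and 6 (8.33%).

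Sympathetic neural crest markers (8 genes, Gata3 again among them), of a cell type known to express Hand2, had 15 and 17 summits in the day 5 controls, 13 in each day 5 KO library and 12 or 13 at day 3, from 5 to 7 genes per library. Th and Dbh, enzymes of catecholamine synthesis, were at 0 or 1 in each library. At day 5, 2 of 14 regions (14.3%) were control-only and 1 (7.14%) KO-only, and at day 3, 3 of 57 (5.26%) and 8 (14%). The part of these cell types in the Hand1 and Hand2 results was not tested, and in mixed embryoid bodies more cells of a type and more open chromatin per cell cannot be told apart.

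Other genes with the same profile were sought by Pearson correlation of summit numbers over the 8 libraries of days 3 and 5, as a description across libraries that share list lengths. Of 16220 genes compared, those most like Hand1 were Dbt and Rtca (neighbours with the same counts), Trim31, BC031181 and Dimt1, each with r = 1. All had 1 and 2 more summits in the day 5 controls than the 3 or 4 of every other library, a smaller step than the 3 and 6 of Hand1. Those most like Hand2, of 16219, were Afap1l2 (r = 0.959), Eif2d and Vwa2 (both 0.954), and Tbx19 and Aspg (both 0.918).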

How the data were processed

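The data are ATAC-seq summit lists of 12 embryoid body libraries, grouped by the labels into 6 groups of 2. Reads were aligned to mm10 with Bowtie2 2.2.4 and peaks called with MACS2, per the submitters' processing notes, which name no MACS2 version. Each deposited file belongs to a single library and gives a position and a −log10 score per summit, and the labels do not say if the authors' score is of a p-value or a q-value. The lowest score in a list was 1.3 to 1.33 at days 3 and 5, against 1.78 to 1.85 at day 10. Names of peaks bear a duplicate-removal tag at days 3 and 5 only, so day and processing cannot be told apart at day 10.

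The score served to order the summits of a list, ties by file order. Summits off chromosomes 1 to 19 and X (21 to 246 per library) were left out. Gene positions and promoter sequences came from RefSeq tables (GRCm38.p6), in which Hand1, Hand2 and all genes of the lists matched by symbol in the gene table. A promoter entry was used for Hand2 and not for Hand1. Calls used equal numbers of summits per list and single-linkage merging at 250 bp. The calling rule was run on simulated lists of near-equal length with planted regions, using all summits. The reduction to equal numbers and lists of unequal length were not checked in this way. Described regions were those with summits in 2 or more libraries. Genes of like pattern were the 5 with the highest r among genes with at least 8 summits whose windows do not overlap that of the member. List genes were named where a region was called, at most 6 by best mean rank. Members, lists and rules were chosen with earlier results of these data known. No significance test was made: 2 against 2 libraries cannot give a small permutation p. Python 3.11.15, pandas 2.3.3, numpy 2.4.6 and matplotlib 3.10.9 were used.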

Additional observations from a re-analysis of the deposited data

Results flagged for a closer look

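At the upper end of Hand1, mean relative rank changed by −54.8 percentage points from day 3 to day 5 in iHA-Foxk1 and by 10.3 in the KO. Both control libraries of day 5 ranked it higher than either of day 3, and both KO libraries of day 5 ranked it lower than either of day 3. This opposite movement drew attention to it, and the difference was not tested. Within iHA-Foxk1 at day 5, the region stood at 27.7% in replicate 1, whose list held 14519 summits, and at 15.9% in replicate 2, whose list held 34040.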

How the results depend on the processing

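Of 16 counts of called regions, 4 (all at day 10, with 0 regions) stayed within 1.5 times under every alternative. With N divided by 2, counts fell to 0 for KO-only and control-only regions of both genes at day 3, for control-only regions at day 5 and day 5-only regions of the control at Hand2, and for day 5-only regions of the KO at Hand1, while the last count at Hand2 became 1. With all summits, Hand1 had 3 KO-only regions at day 5 and 1 day 5-only region in the control, and Hand2 had 0 control-only regions at day 5 and 0 day 5-only regions in the control. Merging at 100 bp gave 1 day 5-only region for Hand1 in the KO, and for Hand2 1 in the control and 1 control-only region at day 5. Judging absence within 1 kb gave 0 control-only regions at Hand2 at day 5. The highest-scoring 50% of each list, chosen after seeing the data, gave 0 KO-only and 0 control-only regions at Hand1 and 0 control-only regions at Hand2 at day 3, 0 control-only regions at Hand2 at day 5, 0 day 5-only regions at Hand1 in the KO and 1 at Hand2 in the control. The N of the control arm, also added later, gave 0 for Hand1 in the KO. The cause was not tested, except that N divided by 2 and 50% of each list drop low-ranked summits by construction.

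Leaving out each library in turn, Hand1 counts ran from 2 to 3 (KO-only) and 1 to 4 (control-only) at day 3, from 0 to 1 and 3 to 9 at day 5, and for day 5-only regions from 3 to 9 in the control and 2 to 4 in the KO. Hand2 counts ran from 1 to 5 and 1 to 3 at day 3, from 0 to 1 and 2 to 3 at day 5, and for day 5-only regions from 2 to 3 in the control and 0 to 1 in the KO. Leaving a library out loosens the rule, which asks for every library of an arm. No paired analysis was possible because the counts come from no test, so there is no fit to hold a block, and the labels do not say that libraries with the same replicate number share a differentiation. Read depth is unknown, so a missing summit does not show closed chromatin.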

Other observations

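Of the 9 regions at Hand1 that a single library held, iHA-Foxk1 day 5 replicate 2 had 4, at relative ranks of 25.9%, 73.6%, 30.1% and 57.7% (57866655, 57883169, 57904441 and 57916220), spread from Gm33026 to Gm33078. A further region at 97438 bp above the gene (57929585 to 57929807) stood at 30.5% in that library and at 96.7% and 96.9% in KO day 5 replicate 1 and iHA-Foxk1 day 3 replicate 2.

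Over the genome, the region with a larger change than the upper end of Hand1 in iHA-Foxk1 lay inside Cux2, a homeobox gene (chromosome 5, 121948589 to 121948869). Its mean relative rank changed by −56.5 percentage points in iHA-Foxk1 and 8.29 in the KO, without the full separation of KO libraries seen at Hand1. Next to Hand1 among the 31 regions of opposite movement stood regions in St6galnac6 (−37.5 in iHA-Foxk1 and 10.4 in the KO), Nmnat2 (−33.5 and 24), Grid1 (−32.5 and 13.1) and Rbms3 (−24.3 and 14.7). One of the 31 lay inside Foxk1 itself (chromosome 5, 142440490 to 142440666), with −3.19 and 6.73. These genes were named after their values were seen.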
